A study of Mus musculus with 6 samples.

Results

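The genes described here encode the proteasome, and they were compared between AI4 CD8 T cells from Rip-B7xAI4 mice and from AI4 mice. They were chosen by symbol, as the genes that start with Psma, Psmb, Psmc, Psmd, Psme, Psmf or Psmg and a digit and that have a probe naming that gene alone, with the probe of the highest mean over the 6 arrays kept for each. This took 50 of the 19929 genes named on the array. Of these, Psmc3ip and Psme3ip1 are no proteasome subunits but carry a matching name, which leaves 48 genes of subunits, activators, an inhibitor and assembly factors. Dim genes, the 30% with the lowest means, stayed out of the test, and 46 of the 48 proteasome genes were among the 13950 tested. Psma8 and Psmd5 were too dim to be tested.

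Expression was measured on 6 single-colour arrays, 3 per group. The Rip-B7xAI4 mice were resistant to type 1 diabetes (T1D) and carry the AI4 T cell receptor together with Rip-B7x, in which the rat insulin promoter drives the inhibitory ligand B7x on beta cells. The AI4 mice carry the AI4 receptor without Rip-B7x and developed T1D. All mice were on a C57BL/6.H2g7/g7 background, the T cells were sorted from pooled pancreata by CD8 and by a tetramer of MimA2 on H-2Db, and the sources used here do not give ages, sexes or the number of mice per pool. Because the transgene and the resistance go together, they cannot be told apart. Values are log2 expression, differences are Rip-B7xAI4 minus AI4 on the log2 scale, and tests are limma's, two-sided, with Benjamini-Hochberg adjustment across the 13950 genes.

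The proteasome is the barrel-shaped protease that degrades ubiquitin-tagged proteins in the cytosol and nucleus. Its core particle is built of rings of alpha subunits, which gate the entry, and rings of beta subunits, some of which cut proteins. A regulatory particle caps the core, binds ubiquitin and unfolds the substrate with a ring of ATPases. Interferon gamma and activation of lymphocytes induce alternative catalytic subunits that form the immunoproteasome, and the activator PA28, which together favour the peptides presented on MHC class I. Lymphocytes express the immunoproteasome at rest.

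The arrays had medians of 5.94 to 6.08 in Rip-B7xAI4 and 6.05 to 6.10 in AI4. Their interquartile ranges differed more, at 2.13, 1.93 and 1.81 in Rip-B7xAI4 and 1.71, 1.76 and 1.95 in AI4, and 3 arrays per group limit the precision of every value. Markers of other cell types were high on some arrays. The 14 myeloid markers averaged 9.18, 6.26 and 9.01 on the Rip-B7xAI4 arrays (replicates 1, 2 and 3), against 6.72, 6.04 and 6.54 in AI4, and that of 5 neutrophil markers was 8.44, 5.91 and 8.01 in Rip-B7xAI4, against 5.64, 5.41 and 5.59 in AI4. The mean of Cd8a and Cd8b1 was 9.62, 10.58 and 9.63 in Rip-B7xAI4 and 10.69, 10.88 and 10.79 in AI4, and the mean of 5 general T cell markers was 10.33 to 10.98 in Rip-B7xAI4 and 9.77 to 10.76 in AI4. Markers of acinar cells, beta cells and NK cells averaged 5.97 or less on every array. Rip-B7xAI4 replicate 2 is thus the array of its group with a myeloid mean within the range of AI4, while its neutrophil mean lies above every AI4 array. In sorted populations such as these, fewer cells of a type and less RNA per cell cannot be told apart.

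As a group, proteasome genes lay higher in cells from Rip-B7xAI4 mice, but no single one passed the test. Of the 46 tested genes, 42 had a positive and 4 a negative difference, with a median of 0.38, against a median of -0.10 over all genes tested, of which 39.0% were positive. The adjusted p was 0.206 or more for every proteasome gene in limma, and 0.00717% of all genes tested passed 0.05. At an unadjusted p of 0.05, 9 of the 46 (19.6%) were higher and 0 were lower, against 5.56% and 3.17% of all genes tested. The groups did not overlap for 13 genes: Rip-B7xAI4 was the upper group for 12 (26.1%), against 5.99% of all genes, and the lower for Psmb11 alone, against 11.9%. Leaving out Rip-B7xAI4 replicate 1 reduced the count of 9 to 3 (3.43% of all genes were higher in that fit), and leaving out replicate 2 of that group to 4 (5.84%). Leaving out AI4 replicate 2 gave 6 (4.01%). The count was 4 with a covariate for the myeloid mean (3.15% of all genes) and 20 with array weights (8.97%).

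Bright genes had larger differences in general, and most proteasome genes are bright. Among the 1395 brightest genes tested, those with a mean above 8.35, the median difference was 0.21. Of these 13.5% were higher at an unadjusted p of 0.05, and 15.8% had Rip-B7xAI4 wholly above AI4. Of the 46 proteasome genes, 26 were as bright, with a median of 0.51. Among these 26, 5 (19.2%) were higher at the unadjusted limit and 9 (34.6%) did not overlap. After quantile normalization, which gives every array the same distribution, the median was 0.18 over the proteasome genes, -0.01 over the brightest genes and -0.10 over all genes, and 34 of 46 proteasome genes had a positive difference. In that fit 6 were higher at the unadjusted limit (4.44% of all genes), and Rip-B7xAI4 was wholly above AI4 for 8 in place of 12. The part of array brightness beyond this was not tested.

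**Figure D1:**
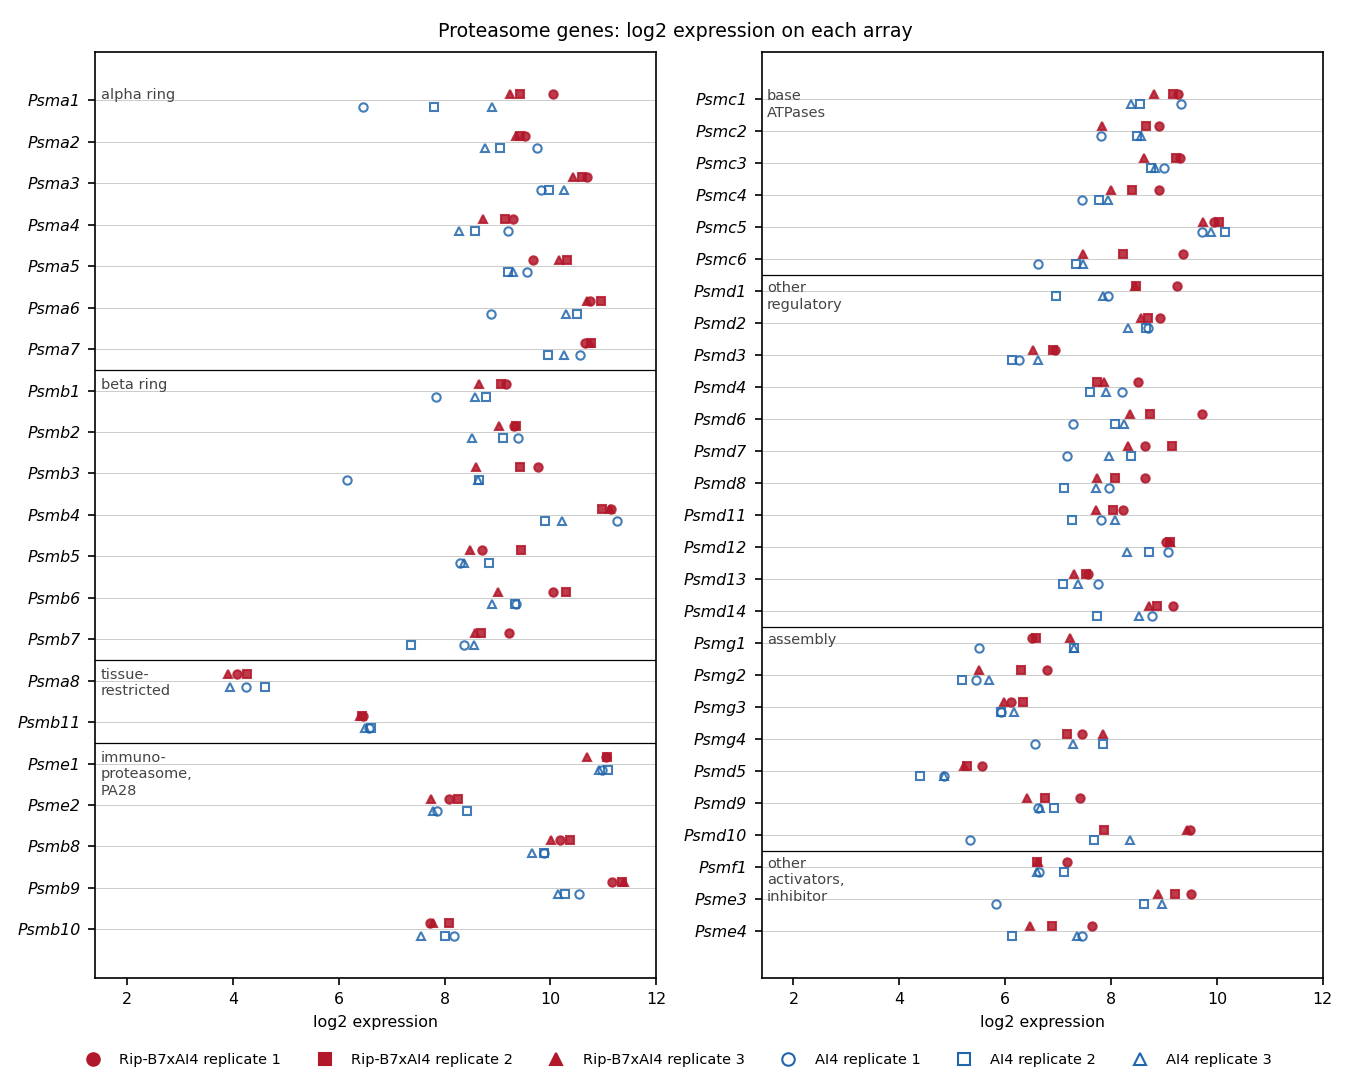
Log2 expression (x axis) of the 48 proteasome genes (rows) on each array, filled red for Rip-B7xAI4 and open blue for AI4, with a marker shape per replicate and lines between the classes. For Psmb9 and 5 of the 7 alpha ring genes the red points lie wholly to the right of the blue ones, while Psma1, Psmb3, Psmd10 and Psme3 have AI4 replicate 1 far to the left of every other array.

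The sequences before the start sites of the genes for the catalytic subunits are shown because the values that follow set Psmb9, which has the smallest p of the proteasome genes, beside its neighbours and the other catalytic subunits. Psmb9, Tap1, Psmb8 and Tap2 follow each other on chromosome 17, and Psmb9 and Tap1 start head to head, so that 225 bases lie between both starts. The sequences are from RefSeq (GRCm38.p6), read 5′ to 3′ on the strand of the named gene and ending at the base before its start. Capitals mark matches on either strand to the gamma-activated site TTCNNNGAA of interferon gamma response genes, the interferon-stimulated response element, which IRF factors bind, the antioxidant response element core TGACNNNGC, through which Nfe2l1 drives proteasome genes, and the CCAAT box CCAAT. The stretch for Psmb9 is at chr17:34187331-34187555 on the minus strand, that for Psmb8 at chr17:34197945-34198194 on the plus strand and that for Psmb5 at chr14:54617996-54618245 on the minus strand.
Psmb9: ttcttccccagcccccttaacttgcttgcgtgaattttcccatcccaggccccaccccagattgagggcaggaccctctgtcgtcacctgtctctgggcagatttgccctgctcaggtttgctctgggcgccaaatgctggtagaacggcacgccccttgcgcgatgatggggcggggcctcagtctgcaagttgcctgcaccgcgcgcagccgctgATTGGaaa
Psmb8: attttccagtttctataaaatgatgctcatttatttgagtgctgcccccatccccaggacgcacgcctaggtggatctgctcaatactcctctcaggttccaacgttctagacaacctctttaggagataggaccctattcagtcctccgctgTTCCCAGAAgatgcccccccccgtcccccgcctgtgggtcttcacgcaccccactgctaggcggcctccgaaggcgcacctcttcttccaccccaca
Psmb5: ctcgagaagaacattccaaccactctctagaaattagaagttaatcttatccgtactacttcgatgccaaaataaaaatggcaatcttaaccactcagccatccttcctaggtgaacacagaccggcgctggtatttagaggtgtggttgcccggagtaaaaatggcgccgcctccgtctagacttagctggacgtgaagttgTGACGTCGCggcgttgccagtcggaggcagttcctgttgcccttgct
The stretch between Psmb9 and Tap1 held a match to the CCAAT box, that before Psmb8 a match to the gamma-activated site and that before Psmb5 a match to the antioxidant response element core. In the 250 bases before the start, 40 of the 48 genes could be looked up. The CCAAT box was found in 14 of these (35%), against 33.8% of 32851 promoters, and the antioxidant response element core in 5 (12.5%), against 10.2%. The core was found before Psmb5, Psmb6, Psmc6, Psmd12 and Psmd9. The gamma-activated site was found in 2 (5%), Psmb8 and Psmg1, against 7.02%, and the interferon-stimulated response element in 3 (7.5%), Psmb3, Psmd4 and Psmd9, against 2.98%. Proteasome genes were counted per gene, with a match in any promoter of the gene, while the share over all promoters counts each promoter singly. These shares are thus not counted alike. A match is a description of these letters and not a site shown to be bound.

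Of the 3 immunoproteasome catalytic subunits, Psmb9 had the largest difference, Psmb8 a smaller one, and Psmb10 overlapped between the groups. Psmb9 (probe 10450145) encodes the subunit that takes the place of the constitutive β1. It stood at 11.16, 11.35 and 11.40 in Rip-B7xAI4 and at 10.54, 10.27 and 10.15 in AI4, so the groups did not overlap and lay apart by more than the spread within either. The means were 11.30 ± 0.13 in Rip-B7xAI4 and 10.32 ± 0.20 in AI4 (SD, n = 3 each). The difference was 0.98 ± 0.18 (SE), a 1.97-fold ratio that did not pass (adjusted p = 0.206 in limma's fit across all genes). It had the smallest p of the 46 genes, and over all alternatives its difference ranged over 0.76 to 1.09, with adjusted p-values of 0.0501 to 0.953. In Rip-B7xAI4 replicate 2 Psmb9 was at 11.35. The myeloid mean of that array lay within the range of AI4, but its neutrophil mean, 5.91, was above the highest of AI4, 5.64. The difference of Psmb9 was 1.03 without Rip-B7xAI4 replicates 1 and 3 and 1.01 ± 0.27 with the myeloid covariate. The part of other cells in the Psmb9 values was not tested beyond this.

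Psmb8 (probe 10444258), which replaces the constitutive β5, was at 10.17, 10.36 and 10.02 in Rip-B7xAI4 and at 9.88, 9.87 and 9.66 in AI4. The groups did not overlap, but the gap was small and the difference of 0.38 ± 0.17 (SE) did not pass (limma adjusted p = 0.571). Psmb10 (probe 10581378), which replaces β2, was at 7.73, 8.08 and 7.78 in Rip-B7xAI4 and at 8.18, 8.0 and 7.55 in AI4. Its groups overlapped fully, with a difference of -0.05 ± 0.22 (limma adjusted p = 0.927). The activator PA28, a ring of the products of Psme1 and Psme2, opens the gate of the core. Psme1 was at 11.04, 11.06 and 10.70 in Rip-B7xAI4 and 10.98, 11.09 and 10.91 in AI4, and Psme2 at 8.09, 8.25 and 7.74 in Rip-B7xAI4 and 7.85, 8.42 and 7.78 in AI4. Neither separated the groups, with differences of -0.06 ± 0.18 and 0.01 ± 0.24 (limma adjusted p = 0.884 and 0.989). A further probe that names both Psme2b and Psme2, and was therefore not used for the gene, differed by 0.23. The 5 genes of this class had a median of 0.01, which turned to -0.21 under quantile normalization and was 0.23 when Rip-B7xAI4 replicates 1 and 3 were left out.

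The constitutive catalytic subunits had positive differences too, with more spread. Psmb6, which encodes β1 with its caspase-like activity, was at 10.05, 10.29 and 9.02 in Rip-B7xAI4 and at 9.36, 9.34 and 8.90 in AI4. Psmb5, the chymotrypsin-like β5, was at 8.71, 9.44 and 8.47 in Rip-B7xAI4 and at 8.28, 8.84 and 8.36 in AI4. Psmb7, the trypsin-like β2, was at 9.22, 8.69 and 8.57 in Rip-B7xAI4 and at 8.38, 7.36 and 8.56 in AI4. Rip-B7xAI4 replicate 3 was the lowest of its group for all 3 and lay within the range of AI4 for Psmb6 and Psmb5, while for Psmb7 it was just above it. The differences were 0.59 ± 0.35, 0.38 ± 0.30 and 0.73 ± 0.36 (SE), and none passed (limma adjusted p = 0.589, 0.628 and 0.579).

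Set against its constitutive counterpart on the same array, no immunoproteasome subunit separated the groups. With the AI4 mean of the log2 ratio set to 0, Psmb9 over Psmb6 was at -0.01, -0.07 and 1.26 in Rip-B7xAI4 and at 0.06, -0.19 and 0.13 in AI4, a difference of 0.39 that rests on replicate 3 (two-sided exact permutation p = 0.7). Psmb8 over Psmb5 differed by less than 0.01 (exact p = 1) and Psmb10 over Psmb7 by -0.78 (exact p = 0.3). Against its neighbours on the chromosome, the groups did not overlap for Tap1 and Psmb8, and overlapped for Tap2. Psmb9 over Tap1 was at 0.94, 0.71 and 0.64 in Rip-B7xAI4 and at 0.30, -0.04 and -0.27 in AI4, and Psmb9 over Psmb8 was at 0.47, 0.47 and 0.87 in Rip-B7xAI4 and at 0.15, -0.12 and -0.03 in AI4. For each of these the exact permutation p was 0.1, the smallest that 3 against 3 arrays allow, and 0.3 adjusted over the 6 ratios compared. Psmb9 over Tap2, a ratio added after the values were seen, was at 0.29, 0.54 and 0.55 in Rip-B7xAI4 and at 0.42, -0.08 and -0.34 in AI4 (exact permutation p = 0.2, adjusted 0.4). All 6 ratios use genes from lists chosen with earlier results of these data known. Psmb9 also has the smallest p of the proteasome genes on these arrays, so its ratios are no test independent of that choice. Ratios within an array show unequal change and not which gene changed.

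**Figure D2:**
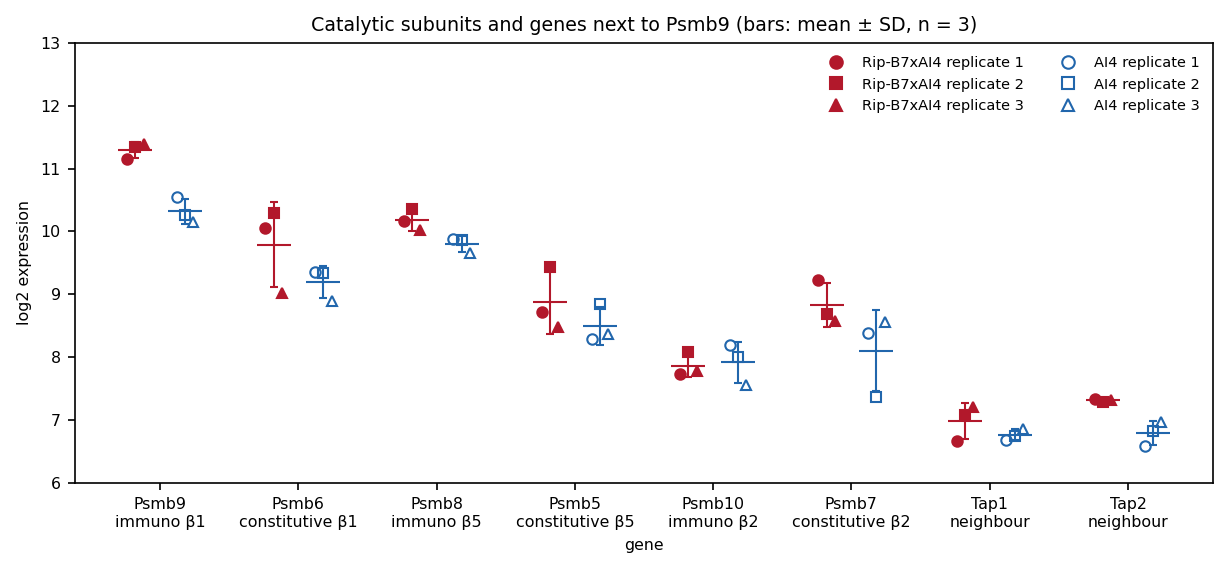
Log2 expression (y axis) on each array of the immunoproteasome and constitutive catalytic subunits, paired by the position they take, and of Tap1 and Tap2, with mean ± SD (n = 3) as bars, Rip-B7xAI4 left of AI4 for each gene. Psmb9 lies between 11.16 and 11.40 in Rip-B7xAI4 and between 10.15 and 10.54 in AI4, and Psmb10 overlaps fully.

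Genes of interferon gamma, its receptor and signalling, and of peptide loading did not follow a single direction. Of 13 listed genes 12 had a probe of their own and all 12 were tested, with a median of 0.10, against -0.10 over all genes. At an unadjusted p of 0.05, 2 (16.7%) were higher, Ifng and Tap2, and 1 was lower, Ifngr2. Over all genes tested 5.56% were higher and 3.17% lower. Ifng itself was at 9.47, 9.73 and 8.49 in Rip-B7xAI4 and at 6.76, 5.38 and 5.14 in AI4, and differed by 3.47 ± 0.51 (SE, limma adjusted p = 0.157). Ifngr2, a chain of its receptor, was at 6.91, 6.18 and 6.83 in Rip-B7xAI4 and at 7.16, 8.05 and 8.76 in AI4, lower by value in every Rip-B7xAI4 array (adjusted p = 0.496). Irf1, a transcription factor induced by interferon gamma, was at 8.58, 6.72 and 6.68 in Rip-B7xAI4 and at 10.15, 7.99 and 7.70 in AI4, with overlapping groups. Nlrc5, the activator of MHC class I genes, differed by -0.24 ± 0.38. Tap1, whose product pumps peptides into the endoplasmic reticulum, differed by 0.22 ± 0.20, and its partner Tap2 by 0.52 ± 0.17, at 7.34, 7.28 and 7.32 in Rip-B7xAI4 and 6.58, 6.81 and 6.96 in AI4 (adjusted p = 0.505).

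The alpha ring was the part of the core with the clearest separation by value. All 7 genes had a positive difference, with a median of 0.56. In 5 of the 7 (71.4%) Rip-B7xAI4 lay wholly above AI4, against 5.99% of all genes tested and 15.8% of the 1395 brightest. Psma5 (probe 10365426) was at 9.67, 10.32 and 10.17 in Rip-B7xAI4 and at 9.56, 9.19 and 9.29 in AI4, a difference of 0.70 ± 0.23 (SE, limma adjusted p = 0.508). The other probe of Psma5 was at 8.33, 8.51 and 8.93 in Rip-B7xAI4 and at 8.40, 7.39 and 8.03 in AI4, with overlapping groups. Psma3 (probe 10543783) was at 10.69, 10.60 and 10.42 in Rip-B7xAI4 and at 9.82, 9.98 and 10.25 in AI4, a difference of 0.56 ± 0.19 (adjusted p = 0.512). Psma7 was at 10.65, 10.76 and 10.75 in Rip-B7xAI4 and at 10.55, 9.95 and 10.25 in AI4, a difference of 0.47 ± 0.20 (adjusted p = 0.566). On the kept probes of these 3 genes the groups lay close together without overlap, and after quantile normalization the differences were 0.44, 0.29 and 0.18.

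Psma1 and Psma6 did not overlap either, but a low AI4 replicate 1 makes up much of their difference. Psma1 was at 10.05, 9.42 and 9.24 in Rip-B7xAI4 and at 6.46, 7.80 and 8.89 in AI4, a difference of 1.85 ± 0.59 (SE, limma adjusted p = 0.505). Psma6 was at 10.75, 10.96 and 10.69 in Rip-B7xAI4 and at 8.88, 10.50 and 10.30 in AI4, a difference of 0.91 ± 0.43. Without AI4 replicate 1 these differences were 1.22 and 0.40. Psma2 and Psma4 overlapped, with differences of 0.24 ± 0.27 and 0.37 ± 0.29, and AI4 replicate 1 was here the highest of its group. The testis-restricted Psma8, too dim to test, was at 3.90 to 4.27 in Rip-B7xAI4 and 3.94 to 4.61 in AI4.

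In the beta ring all 7 constitutive genes had a positive difference, with a median of 0.59, and 0 of 7 were past an unadjusted p of 0.05. The structural subunits Psmb1, Psmb2 and Psmb4 differed by 0.57 ± 0.29, 0.23 ± 0.26 and 0.62 ± 0.35 (SE). Psmb4 was at 11.14, 10.97 and 11.13 in Rip-B7xAI4 and at 11.25, 9.89 and 10.23 in AI4, with AI4 replicate 1 the highest of all arrays. Psmb3 was the reverse, at 9.77, 9.43 and 8.59 in Rip-B7xAI4 and at 6.15, 8.65 and 8.64 in AI4, and its difference of 1.45 ± 0.71 was 0.62 without AI4 replicate 1. Psmb11, the thymus-restricted catalytic subunit, was at 6.46, 6.45 and 6.40 in Rip-B7xAI4 and at 6.57, 6.62 and 6.50 in AI4. Its difference of -0.13 ± 0.15 was near the median of all genes.

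The regulatory particle was higher by value in most of its genes, led by Rip-B7xAI4 replicate 1. Of its 17 genes 16 had a positive difference, with a median of 0.39 that was 0.17 after quantile normalization. At an unadjusted p of 0.05, 5 (29.4%) were higher. For 4 (23.5%) the groups did not overlap, against 5.99% of all genes tested and 15.8% of the 1395 brightest. The count of 5, beside 5.56% of all genes, dropped to 1 when either replicate 1 or replicate 2 of Rip-B7xAI4 was left out, to 2 when replicate 2 of AI4 was, and to 1 with the myeloid covariate. The count was 2 with the replicate block (5.53%), 3 with the trended and robust eBayes (5.1%) and 10 with array weights (8.97%). The median was 0.42 when replicates 1 and 3 of Rip-B7xAI4 were both left out. Without Rip-B7xAI4 replicate 1 the gene left was Psmd1, and the differences of Psmc6 and Psmd6 were 0.70 and 0.69. The class mean was 8.84, 8.53 and 8.19 in Rip-B7xAI4 and 8.05, 7.93 and 8.12 in AI4. Replicate 3 of Rip-B7xAI4 thus lay next to the highest AI4 array. Over all 46 proteasome genes Rip-B7xAI4 replicate 1 was the highest array for 24 genes (52.2%), against 20.6% of all genes tested, and its myeloid mean and interquartile range were also the highest, at 9.18 and 2.13. The same array was the lowest for 30.8% of all genes and for 0 of the 46. Replicate 3, at 9.01, was the highest for 2 genes, and the part of myeloid RNA and of array spread in the regulatory particle genes was not tested beyond the covariate and quantile normalization.

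Psmd1, the large scaffold subunit of the base, was at 9.24, 8.47 and 8.45 in Rip-B7xAI4 and at 7.95, 6.95 and 7.84 in AI4, a difference of 1.14 ± 0.35 (SE, limma adjusted p = 0.486). Psmd6, a subunit of the lid, was at 9.73, 8.73 and 8.37 in Rip-B7xAI4 and at 7.29, 8.07 and 8.24 in AI4, a difference of 1.08 ± 0.41 (adjusted p = 0.553). Psmd7, the partner of the deubiquitinase Psmd14 in the lid, was at 8.65, 9.15 and 8.33 in Rip-B7xAI4 and at 7.16, 8.37 and 7.96 in AI4, a difference of 0.88 ± 0.36 (adjusted p = 0.566). The difference of Psmd7 was 0.54 without AI4 replicate 1. Psmd1 and Psmd6 did not overlap, while for Psmd7 replicate 3 of Rip-B7xAI4 lay just below AI4 replicate 2. Psmd14 differed by 0.58 ± 0.30, Psmd8 by 0.56 ± 0.32, Psmd3 by 0.45 ± 0.21 and Psmd12 by 0.39 ± 0.22. The other 4 lid and base genes, Psmd2, Psmd4, Psmd11 and Psmd13, differed by 0.07 to 0.27, among them the ubiquitin receptor Psmd4 with 0.13 ± 0.27.

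Among the 6 ATPases of the base, Psmc4 and Psmc6 lay apart from the rest. Psmc4 was at 8.91, 8.40 and 8.0 in Rip-B7xAI4 and at 7.45, 7.77 and 7.95 in AI4, a difference of 0.71 ± 0.27 (SE, limma adjusted p = 0.553). Psmc6 was at 9.37, 8.22 and 7.48 in Rip-B7xAI4 and at 6.63, 7.34 and 7.47 in AI4, a difference of 1.21 ± 0.49 (adjusted p = 0.566). In both genes the lowest Rip-B7xAI4 array nearly met the highest AI4 array, and the 3 Rip-B7xAI4 arrays differed among themselves by more than this gap. Psmc5, at 9.95, 10.04 and 9.74 in Rip-B7xAI4 and at 9.71, 10.16 and 9.90 in AI4, had the lowest difference of the particle, -0.01 ± 0.19. Psmc1, Psmc2 and Psmc3 differed by 0.34 ± 0.29, 0.17 ± 0.34 and 0.18 ± 0.23.

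**Figure D3:**
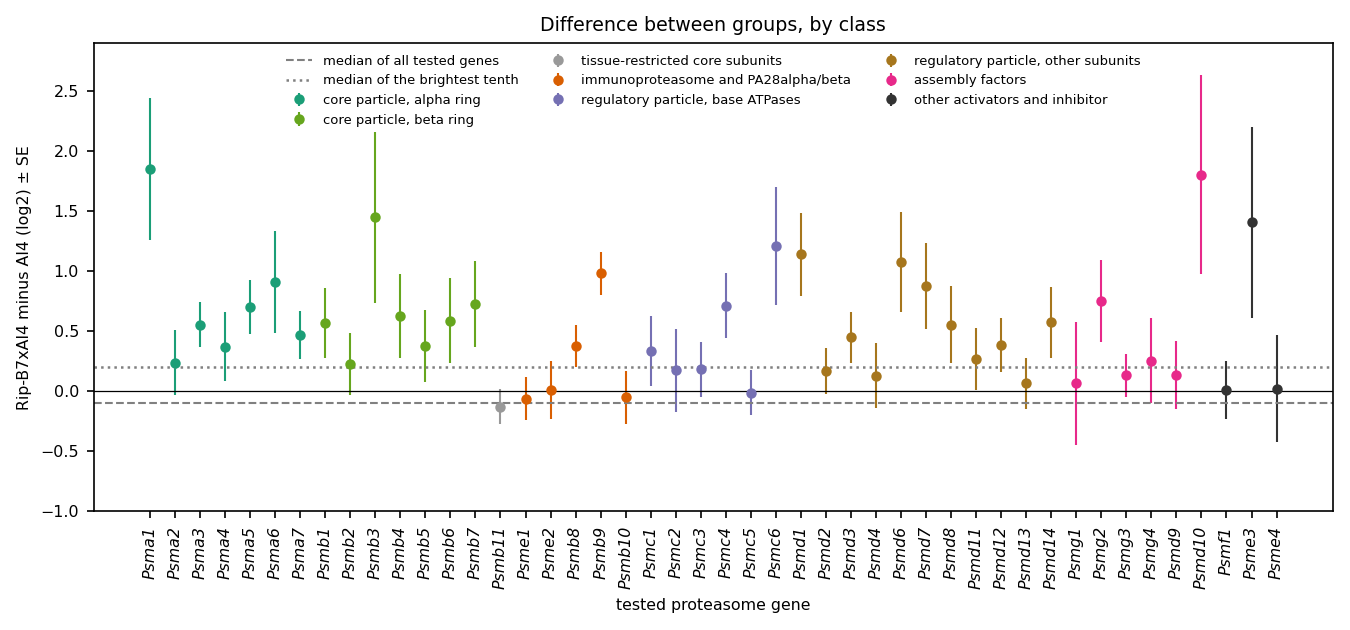
Difference between Rip-B7xAI4 and AI4 in log2 expression with its standard error (y axis) for the 46 tested proteasome genes (x axis), coloured by class, with the median of all tested genes (-0.10) dashed and that of the 1395 brightest genes (0.21) dotted. All 14 constitutive core genes lie above 0, Psmb9 has a short error bar at 0.98, and the largest differences, such as Psma1 and Psmd10, have long ones.

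Assembly factors build the particles and are not part of the finished complex. The 6 tested ones had a median of 0.20 and 0 were past an unadjusted p of 0.05. The median was 0.09 without AI4 replicate 1 and 0.47 without AI4 replicate 2. The chaperones of the core, Psmg1 to Psmg4, differed by 0.07 ± 0.51, 0.75 ± 0.34, 0.13 ± 0.18 and 0.26 ± 0.36 (SE). Psmg1 was at 6.51, 6.59 and 7.22 in Rip-B7xAI4 and at 5.51, 7.31 and 7.30 in AI4, and its difference was -0.53 without AI4 replicate 1. Among the chaperones of the base, Psmd10 (gankyrin) was at 9.49, 7.87 and 9.43 in Rip-B7xAI4 and at 5.33, 7.68 and 8.37 in AI4, a difference of 1.81 ± 0.83 (limma adjusted p = 0.571) that was 0.91 without AI4 replicate 1. Its high values were those of the arrays with high myeloid markers, and its value in Rip-B7xAI4 replicate 2 lay within the range of AI4. Psmd9 differed by 0.14 ± 0.28. Psmd5, too dim to test, was at 5.56, 5.28 and 5.22 in Rip-B7xAI4 and at 4.85, 4.39 and 4.84 in AI4, without overlap.

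Of the remaining regulators, Psme3 encodes the nuclear activator PA28γ and was at 9.52, 9.22 and 8.90 in Rip-B7xAI4 and at 5.82, 8.62 and 8.97 in AI4. Its difference of 1.41 ± 0.79 (SE, limma adjusted p = 0.584) was 0.42 without AI4 replicate 1. Psme4, the activator PA200, was at 7.65, 6.88 and 6.47 in Rip-B7xAI4 and at 7.44, 6.13 and 7.36 in AI4, and Psmf1, the inhibitor PI31, at 7.17, 6.60 and 6.62 in Rip-B7xAI4 and at 6.64, 7.10 and 6.60 in AI4. The groups overlapped for both, with Rip-B7xAI4 replicate 1 the highest array, and the differences were 0.02 ± 0.45 and 0.01 ± 0.24. The genes that share only the name, Psmc3ip and Psme3ip1, differed by 0.54 ± 0.41 and 0.44 ± 0.23.

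AI4 replicate 1 stood apart for some proteasome genes. The T cell marker mean was also lowest on this array, at 9.77, against 10.72 and 10.76 on the other AI4 arrays, and its part in these values was not tested. AI4 replicate 1 was the lowest of the 6 arrays for 16 of 46 (34.8%), against 17.8% of all genes tested. This was not particular to it. AI4 replicate 2 was lowest for 14 (30.4%), against 13.4%, and AI4 replicate 3 for 11 (23.9%), against 9.47%. AI4 replicate 1 lay more than 1 log2 unit below both other AI4 arrays for 6 of 46 (13%), against 4.97% of all genes, and these were Psma1, Psma6, Psmb3, Psmd10, Psme3 and Psmg1. The spread between replicates was smaller in Rip-B7xAI4 than in AI4 for 30 of the 46, with a median SD of 0.30 in Rip-B7xAI4 and 0.40 in AI4, and likewise for 11 of the 14 core genes. It was also smaller for 7590 of all 13950 genes tested, with a median SD of 0.25 in Rip-B7xAI4 and 0.26 in AI4. Without AI4 replicate 1, Rip-B7xAI4 was wholly above the remaining AI4 arrays for 19 of the 46 genes, in place of 12, which fewer arrays favour by construction.

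**Figure D4:**
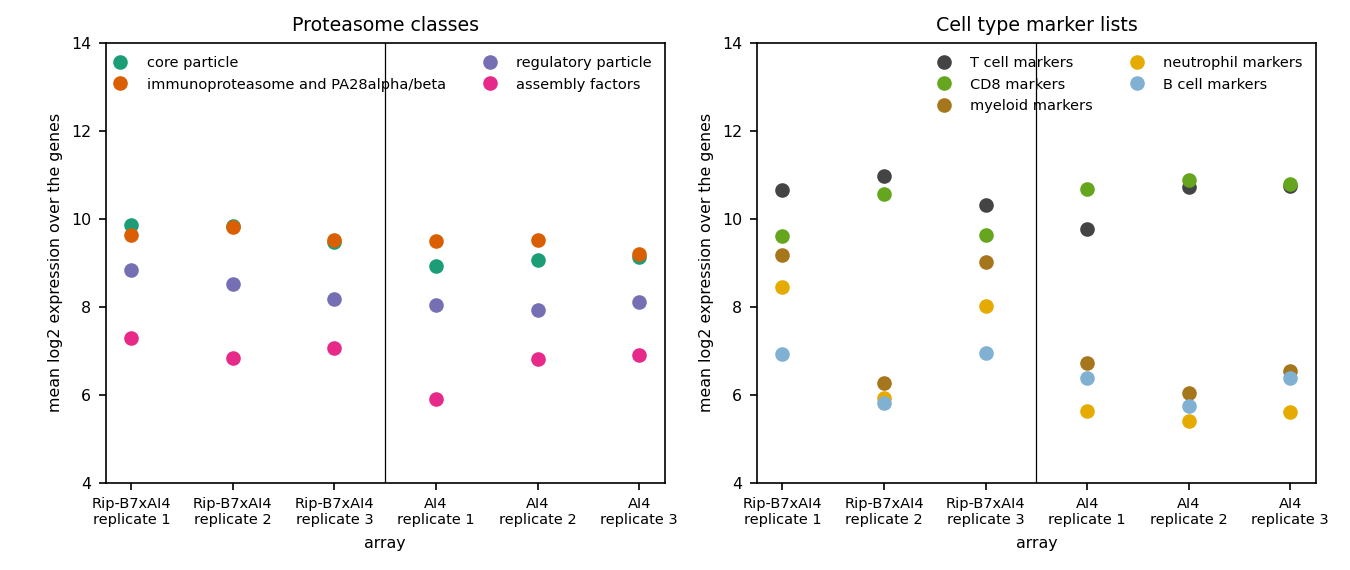
Mean log2 expression (y axis) on each array (x axis, Rip-B7xAI4 left of the line and AI4 right of it) over the tested genes of 4 proteasome classes and over 5 cell type marker lists. The core particle lies at 9.49 to 9.85 in Rip-B7xAI4 and 8.92 to 9.13 in AI4, while myeloid markers are high in Rip-B7xAI4 replicates 1 and 3 alone.

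By class, the core particle separated the groups on every array. Its 14 genes averaged 9.85, 9.85 and 9.49 in Rip-B7xAI4 and 8.92, 9.07 and 9.13 in AI4, with replicate 2 of Rip-B7xAI4 as high as replicate 1. The immunoproteasome and PA28 class averaged 9.64, 9.82 and 9.53 in Rip-B7xAI4 and 9.49, 9.53 and 9.21 in AI4, so its lowest Rip-B7xAI4 array lay at the level of the highest AI4 array. Assembly factors averaged 7.29, 6.84 and 7.07 in Rip-B7xAI4 and 5.90, 6.81 and 6.91 in AI4. The median difference of the core genes was 0.58, and it was 0.35 after quantile normalization and between 0.50 and 0.64 when any 1 array was left out.

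Where a gene had more than 1 probe, the probes gave the same sign. The 3 probes of Psma3 differed by 0.53, 0.50 and 0.56, and both probes of Psma5 by 0.70 and 0.65. On the Psma5 probe that was not kept the groups overlapped. For Psmc1 the probe kept differed by 0.34 and the other by 0.69, and for Psmd2 by 0.17 and 0.53, so that the choice of probe moved these values more than 1.5 times. The probes of Psmb3 differed by 1.45 and 1.15. RefSeq lists 6 pseudogenes of Psma5, Psmb5, Psmb6 and Psmb7, and how far near-identical copies share the signal of these probes is not known.

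Genes that work with the proteasome but carry other names were mostly positive, with wide errors. Of 29 listed genes 20 had a probe of their own, all were tested, 16 had a positive difference and the median was 0.37. At an unadjusted p of 0.05, 2 of the 20 (10%) were higher, Uba6 and Txnl1, and 1 was lower, Ubqln4. Of all genes tested, 5.56% were higher and 3.17% lower. Uba6, an enzyme that activates ubiquitin, was at 7.33, 6.44 and 6.87 in Rip-B7xAI4 and at 5.66, 6.13 and 6.35 in AI4, a difference of 0.83 ± 0.29 (SE, limma adjusted p = 0.530). Txnl1, a thioredoxin bound to the regulatory particle, was at 8.77, 8.88 and 8.25 in Rip-B7xAI4 and at 6.07, 8.05 and 7.91 in AI4, again with a low AI4 replicate 1. Ubqln4, a shuttle for ubiquitin-tagged proteins, was at 5.66, 5.90 and 5.72 in Rip-B7xAI4 and at 6.42, 6.02 and 6.13 in AI4 (adjusted p = 0.566). Vcp, the ATPase that extracts ubiquitin-tagged proteins, differed by 1.30 ± 0.67, and Ubqln2 by -0.59 ± 0.45, the lowest of the list. Pomp, the maturation factor of the core, differed by 0.32 ± 0.31, and Nfe2l1, the transcription factor that raises proteasome genes when the proteasome is impaired, by 0.33 ± 0.26.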

How the data were processed

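Total RNA was hybridised to Affymetrix Mouse Gene 1.0 ST arrays. The authors processed the scans with Affymetrix Expression Console, per the submitters' processing notes; its version and settings were not given in the sources used. The deposited values were taken as log2 from their range, since no source states the scale, and were used with no further normalization. The table held 28325 probes with 0 missing values. In the platform annotation 21760 probes carry 1 symbol, 1621 carry several and 4944 carry none, and 21669 were matched by gene ID to RefSeq (GRCm38.p6). Probes with several symbols named no gene. For each gene the probe with the highest mean was kept, and the dimmest 30% of 19929 genes were left out, which left 13950 with means of 5.471 or more.

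Groups and replicate numbers came from the titles. The tests used limma 3.58.1 in R 4.3.3 (lmFit, eBayes) with a term for the group. Medians and overlaps were counted without a test. Ratios of 2 genes were tested by two-sided exact permutation over the 6 arrays. Levels of dim genes are uncertain, since background was not measured here. The fit was tested on simulated data. The members, classes and lists were chosen with earlier results of these data known. Every member is given; genes of the partner list were named by smallest p, lowest difference or a fixed choice, Ifngr2 and Tap2 after their values were seen. Adrm1, also of that choice, had no probe of its own in the annotation and is not analysed here.

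The alternatives were the replicate block, leaving out each array, leaving out Rip-B7xAI4 replicates 1 and 3, a covariate of myeloid markers, median centring, quantile normalization, a 50% filter or none, the mean of a gene's probes, every probe on its own, eBayes with trend and robust, and array weights. A pseudocount for linear values did not apply.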

Additional observations from a re-analysis of the deposited data

How the results depend on the processing

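Under all 17 alternatives 0 proteasome genes passed an adjusted p of 0.05 in limma and 0 were lower at an unadjusted p of 0.05. The medians of all members, the core, the regulatory particle and the assembly factors stayed positive (0.18 to 0.51, 0.35 to 0.66, 0.17 to 0.54 and 0.09 to 0.47). Each moved from its value in the fit described by less than the pooled SD of the class median between replicates (0.28, 0.26, 0.24 and 0.56). The lowest adjusted p was 0.0501, for Psmb9 with array weights. The count of members higher at an unadjusted p of 0.05, 9 in the fit described, was 5 with the replicate block, 5 when Rip-B7xAI4 replicates 1 and 3 were both left out (the lone array is then assumed to vary like AI4), 4 with the myeloid covariate, 20 with array weights and 3 to 11 when 1 array was left out. The count of members with Rip-B7xAI4 wholly above AI4, 12, was 8 after quantile normalization, 11 under median centring, 27 without Rip-B7xAI4 replicates 1 and 3 and 13 to 24 when 1 array was left out; fewer arrays favour a higher count by construction. The median of the immunoproteasome and PA28 class, 0.01, was 0.23 without Rip-B7xAI4 replicates 1 and 3, 0.26 with the covariate, -0.21 after quantile normalization and -0.10 to 0.21 when 1 array was left out, and the cause was not tested. Replicate numbers did not pair the arrays: same-numbered arrays had correlations of their deviations from the group means of -0.08, 0.06 and -0.22. Of 48 genes, the 46 and both that share only the name, 15 changed sign under at least 1 alternative, 0 of them past an unadjusted p of 0.05 in the fit described. Of the differences that changed sign, without Rip-B7xAI4 replicates 1 and 3 together the values were Psmb10 0.16, Psmc5 0.12, Psmd4 -0.18, Psme1 0.0651, Psme4 -0.10, Psmf1 -0.18, Psmg1 -0.12 and Psmg4 -0.0645. With the myeloid covariate they were Psmb10 0.13, Psmc5 0.14, Psmd4 -0.22, Psme1 0.0551, Psme4 -0.27 and Psmf1 -0.11. After quantile normalization they were Psmc2 -0.0788, Psmc3 -0.0389, Psmd13 -0.0945, Psmd2 -0.0479, Psmd4 -0.0799, Psme2 -0.21, Psme4 -0.10 and Psmf1 -0.0421. Under median centring they were Psmb10 0.0165, Psmc5 0.0562 and Psme1 0.00579. With array weights they were Psmb10 0.0326, Psmd9 -0.0425, Psme2 -0.11, Psmf1 -0.26, Psmg1 -0.40 and Psmg4 -0.24. When 1 array was left out at a time, the ranges of genes that changed sign were Psmb10 -0.23 to 0.0854, Psmc2 -0.065 to 0.49, Psmd4 -0.10 to 0.29, Psmd9 -0.14 to 0.36, Psme2 -0.11 to 0.21, Psme4 -0.40 to 0.28, Psmf1 -0.17 to 0.18, Psmc5 -0.12 to 0.11, Psme1 -0.12 to 0.0568, Psmg1 -0.53 to 0.37, Psmg4 -0.0771 to 0.56, Psmd13 -0.0863 to 0.24, Psmb2 -0.0145 to 0.42. Background was not measured here, so how signal limits dim genes such as Psma8 is not known.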
